A study of Mus musculus with 8 samples.

Results

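The Hox genes encode homeodomain transcription factors that lie in 4 clusters, HoxA to HoxD, and fix position along the body axis. Their transcript counts described here come from mouse kidney in which Kdm1a, the histone demethylase LSD1, had been conditionally deleted. The 38 Hox genes examined were chosen by symbol from a list, and all 38 were found among the 49315 gene identifiers of the count table. They comprise 10 genes of HoxA, 10 of HoxB, 9 of HoxC and 9 of HoxD, each with 1 identifier. The library labels give 4 controls and 4 Kdm1a conditional knockouts, all from frozen kidney. Age, the Cre driver and the alleles carried by the controls are not given in the sources used here, so which renal cells lost Kdm1a is not known. The labels number the libraries 1 to 4 within each genotype without saying that each came from its own animal, so the p-values measure only the spread between these libraries.

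Within a Hox cluster the genes are transcribed from the same strand and are numbered by paralog group, from group 1 at the anterior end to group 13 at the posterior end. Polycomb complexes keep unused Hox genes silent, trithorax complexes keep used ones active, and retinoic acid activates the clusters from the anterior end. Genes of group 11 are needed for the metanephric kidney to form, genes of group 10 act in the renal stroma, and Hoxb7 is expressed along the ureteric bud and collecting duct. Hox proteins bind DNA together with cofactors of the Pbx and Meis families. Kdm1a removes methyl groups from lysine 4 of histone H3 as part of the CoREST complex.

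The clusters also hold microRNAs whose targets include Hox messages. These sequences are shown because Hoxb8, one of the genes that changed, carries the best match of the Hox genes to miR-196a. Only miR-196a was compared over its full length. The mature sequences are from RefSeq on build GRCm38.p6, written 5′ to 3′, and the capitals mark the seed, bases 2 to 8. The miR-196 and miR-10 families each have a single seed.
mmu-miR-196a-5p: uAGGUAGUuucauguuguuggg
mmu-miR-196b-5p: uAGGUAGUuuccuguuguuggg
mmu-miR-10a-5p: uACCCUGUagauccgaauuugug
mmu-miR-10b-5p: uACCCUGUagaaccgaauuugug
The miR-196a sequence is encoded in HoxB (chr11:96265187-96265208, plus strand) and again in HoxC (chr15:102973365-102973386, plus strand). The miR-196b sequence is encoded in HoxA (chr6:52230129-52230150, minus strand), inside an annotated exon of Hoxa9. The miR-10a sequence lies in HoxB (chr11:96317186-96317208, plus strand) and the miR-10b sequence in HoxD (chr2:74726074-74726096, plus strand). The libraries were made from RNA selected with oligo-dT and did not measure mature microRNAs.

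A search of annotated 3′ untranslated regions for the 7 bases that pair with the miR-196 seed, ACTACCT on the message strand, found a match in 8 of the 38 Hox genes. These were Hoxa4, Hoxa5, Hoxa7, Hoxa9, Hoxb1, Hoxb6, Hoxb7 and Hoxc8. The same letters were present in 6.82% of the 14819 tested genes with an annotated 3′ untranslated region. The match to the miR-10 seed, ACAGGGT, was present in 3 Hox genes (Hoxa3, Hoxb3 and Hoxd1) and in 14.4% of those genes. Hoxb8 holds no exact seed match, since one base of its site pairs with the seed as G:U. Over the whole length of miR-196a, its site pairs at all 22 bases, 21 of them Watson-Crick, and only 2 of the 14819 genes held a site of that extent. The next best Hox genes, Hoxa10 and Hoxd3, reached 19 paired bases, with 8 and 9 of them G:U. At least 19 were reached by 1501 of the 14819 genes. Stretches in 3 genes are shown for comparison, with capitals at the bases opposite the seed. The Hoxc8 stretch holds the seed match. That of Hoxd8 holds none and pairs at 18 bases, an extent reached by 6102 of the 14819 genes, so it is not a predicted site.
Hoxb8 site: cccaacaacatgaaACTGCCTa
Hoxc8 site: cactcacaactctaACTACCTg
Hoxd8 site: ctcaacaacataaaCTTCCTAa
The Hoxb8 site is at chr11:96284888-96284909, the Hoxc8 site at chr15:102992976-102992997, and the Hoxd8 site at chr2:74707120-74707141, all on the plus strand. A match describes letters and is not evidence of repression here.

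Library totals ran from 19524945 to 28544511 counts, so 1 count was worth 0.0350 to 0.0512 CPM (counts per 1000000 counted reads). Kdm1a read 109.6 to 119.7 CPM in the controls against 90.8 to 95.2 CPM in the knockouts, a log2 fold change of -0.27 (SE 0.05, edgeR quasi-likelihood adjusted p = 0.0194), or 17.1% lower. A 2-sided exact permutation test of its CPM over the 70 assignments of labels gave p = 0.0286, the smallest that 4 against 4 allows. Most of the Kdm1a message was still counted in the libraries labelled knockout, and whether the counted exons include a deleted one is not given. The call was lost without control 1, control 3, knockout 1, knockout 2 or knockout 4, at edgeR adjusted p of 0.0529 to 0.0765. On the first principal component of all tested genes, which held 62.7% of the variance, control 2 (9.6) and knockout 3 (9.7) lay side by side. The other controls were at -78.7 to -52.4 and the other knockouts at 48.3 to 68.4. Summed Y-linked transcripts were at or below 2.62 CPM in control 2, knockout 1 and knockout 4 and at or above 228 CPM in the rest. Summed adrenal markers, which do not belong to the kidney, read 2764 CPM in knockout 1, 383 CPM in knockout 4, 153 CPM in control 4 and at most 24.7 CPM in the rest. All 14 proximal tubule markers were detected, which fits the kidney label, and all 14 were called lower in the knockouts. Their sum was 591 to 2604 CPM in the controls against 86.9 to 399.9 CPM in the knockouts, with the lowest control value in control 2 and the highest knockout value in knockout 3. In whole kidney, fewer cells of a type and less RNA per cell cannot be told apart. The part of these differences in the Hox values was not tested, beyond the values without those libraries given below.

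Per kilobase of exon, the 6 highest Hox levels in these kidneys belonged to genes of groups 7 to 10. In the controls Hoxd9 had the highest level of the 38, at 66.9 ± 3.95 RPKM (CPM per kilobase of exon; mean ± SD, n = 4), and its lowest control library lay above every control value of the next gene in order. Hoxb7 (49.6 ± 3.83), Hoxd8 (48.2 ± 8.79), Hoxa10 (47.8 ± 4.41), Hoxb8 (47.5 ± 2.84) and Hoxb9 (46.2 ± 4.68) followed, and neighbours in that order overlapped. Hoxb6 (37.02 ± 1.65 RPKM), Hoxd10 (35.98 ± 3.66 RPKM) and Hoxc10 (29.1 ± 5.36 RPKM) came next. Within clusters, the highest levels over all 8 libraries belonged to Hoxa10 in HoxA (48.3 RPKM), Hoxb8 in HoxB (54.3 RPKM), Hoxc10 in HoxC (33.3 RPKM) and Hoxd9 in HoxD (64.8 RPKM). Counting only exon bases shared with no other gene left the same gene first in each cluster but moved others: in the controls Hoxa11 went from 25.1 to 38.6 RPKM, Hoxb3 from 13.3 to 28.2 RPKM and Hoxd4 from 11.5 to 24.1 RPKM. That places Hoxa11, of group 11, above Hoxb6, Hoxd10 and Hoxc10. Reads in shared exons are kept in these values, so they are upper estimates where such reads were counted. The 7 lowest levels in the controls were those of genes of groups 1, 12 and 13. Hoxb1 read 0.172 ± 0.152 RPKM and Hoxd1 1.13 ± 0.366 RPKM in the controls, and the group 13 genes were at or below 0.147 RPKM. In the knockouts Hoxd9 stayed first at 62.7 ± 6.58 RPKM, with Hoxb8 at 60.97 ± 1.92 RPKM, Hoxb9 at 60.03 ± 2.59 RPKM and Hoxb7 at 57.9 ± 1.07 RPKM close behind.

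**Figure D1:**
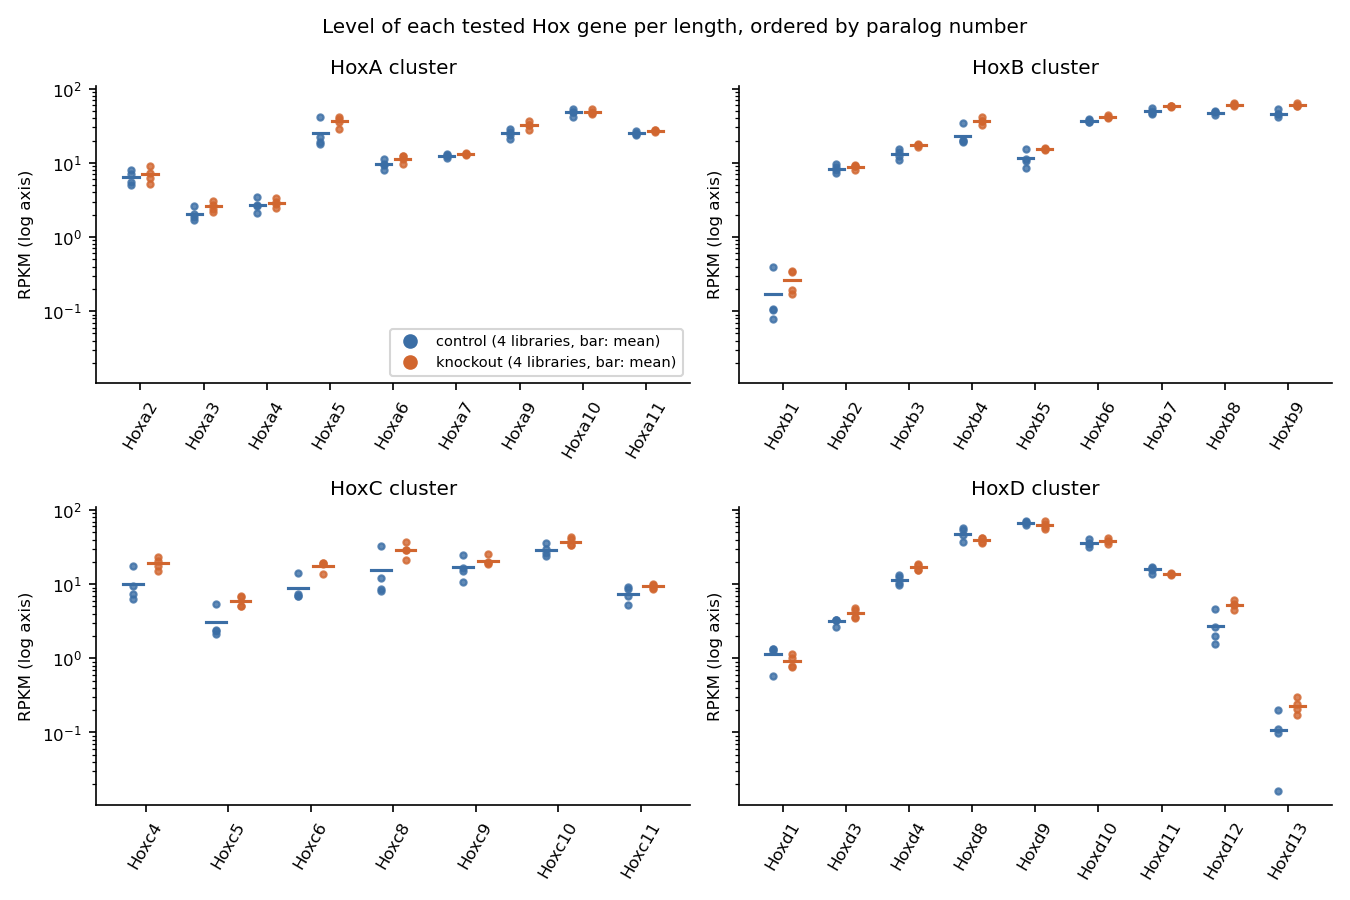
Level of each tested Hox gene in RPKM (vertical axis, log scale), ordered by paralog number within each cluster (horizontal axis), with 1 point per library coloured by genotype and a bar at the mean of 4. Hoxd9 has the highest level, and Hoxb1, Hoxd1 and Hoxd13 lie near the bottom.

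Of the 38 genes, 34 passed the filter on low counts and were tested, and 6 were called at an adjusted p under 0.05 by edgeR's quasi-likelihood test, fitted to all 18485 tested genes. All 6 were higher in the knockout: Hoxb3, Hoxb4, Hoxb8, Hoxb9, Hoxc6 and Hoxd4. That is 17.6% of the Hox genes tested, beside 14.9% of all tested genes called in either direction, 6.61% called higher and 8.27% called lower. The log2 fold change was above 0 for 30 of the 34, beside 50.5% of all tested genes, and their median was 0.35, beside 0.004 over all tested genes. An unadjusted p under 0.05 was reached by 17 of them and by 6489 of the 18485. In 7 genes every knockout library exceeded every control library (Hoxb3, Hoxb6, Hoxb7, Hoxb8, Hoxb9, Hoxd3 and Hoxd4), beside 9.28% of all tested genes, and in none was every knockout library lower. The 4 genes below 0 were all in HoxD: Hoxd1, Hoxd8, Hoxd9 and Hoxd11. By position, 1 of 7 tested genes of groups 1 to 3, 4 of 15 of groups 4 to 8 and 1 of 12 of groups 9 to 13 were called.

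The count of 6 rested on which libraries were included. It was 1 without control 1, 0 without control 3, 1 without control 4, 1 without knockout 1, 1 without knockout 2, 7 without knockout 3 and 0 without knockout 4. Without control 2 it was 19, of which Hoxd11 alone was lower. Over all genes the same 8 omissions gave 153 to 7084 calls beside 2751, the lowest without knockout 4 and the highest without control 2. With the 5 libraries that held Y-linked transcripts, 13 Hox genes were called, all higher, where 3163 of 18944 genes in all were called. That subset leaves out control 2, knockout 1 and knockout 4. With the 5 libraries of low adrenal signal no Hox gene was called, where 1 gene in all was called. This second subset leaves out control 4, knockout 1 and knockout 4 and keeps control 2 and knockout 3. It also has fewer libraries, and leaving out knockout 4 alone already gave 0 Hox calls and 153 calls in all. The effects of low adrenal signal, of fewer libraries and of keeping control 2 among fewer controls cannot be told apart. An adrenal covariate left Hoxb8 (edgeR adjusted p = 0.0364) and Hoxb9 (0.0419) called, where 1195 genes in all were called. It ended the calls of Hoxb3 (0.0814), Hoxb4 (0.118), Hoxc6 (0.0695) and Hoxd4 (0.0541).

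**Figure D2:**
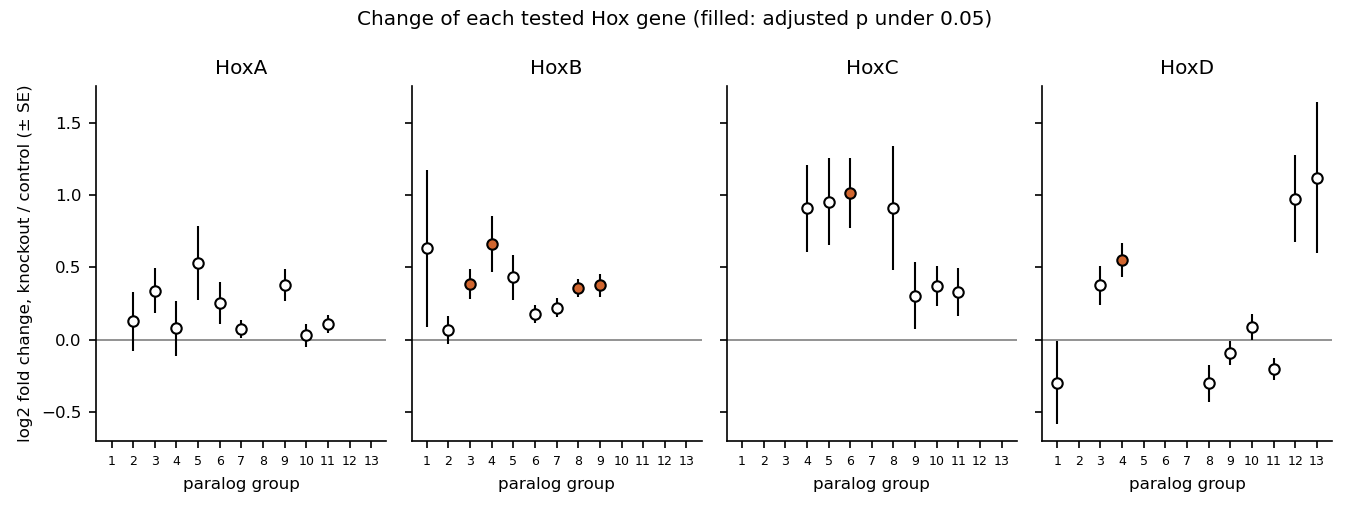
Log2 fold change of each tested Hox gene, knockout over control (vertical axis), against its paralog group (horizontal axis), 1 panel per cluster, with bars of 1 standard error and filled points for the 6 called genes. Of the 34 points 30 lie above 0, HoxC has the highest cluster median at 0.91, and 4 HoxD genes lie below 0.

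HoxB held 4 of the 6 called genes. All 9 tested HoxB genes had a log2 fold change above 0, with a median of 0.38, and 5 had groups that did not overlap. The cluster spans chr11:96194316-96368256 on build GRCm38. Its summed level was 562, 647, 557 and 519.7 CPM in controls 1 to 4 and 759, 731, 712 and 716 CPM in knockouts 1 to 4. Every knockout exceeded every control, and the ratio of means was 1.28. Hoxb8 and Hoxb9 were its largest terms.

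Hoxb8 (chr11:96281905-96285315), a posterior trunk patterning gene, had the smallest adjusted p of the Hox genes. Its control libraries read 127, 133, 126 and 115 CPM and its knockout libraries 167, 158, 162 and 155 CPM. The lowest knockout lay above the highest control, control 2. Its log2 fold change was 0.36 (SE 0.060, edgeR adjusted p = 0.0134), and it was called under 15 of the 18 alternatives. The call was lost without control 3 (edgeR adjusted p = 0.0502), without knockout 4 (0.053) and with only the libraries of low adrenal signal (0.304).

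Hoxb9 (chr11:96271457-96276595), a group 9 gene known for its part in the thoracic skeleton, followed the same course. It read 118, 135, 117 and 106 CPM in the controls against 156, 163, 149.97 and 149 CPM in the knockouts. Control 2 was the highest control and still below every knockout. The fitted log2 change was 0.38 (SE 0.078, edgeR adjusted p = 0.0211). The call was lost on leaving out any one of control 1 (0.0616), control 3 (0.0697), control 4 (0.0525), knockout 1 (0.0593), knockout 2 (0.0626) or knockout 4 (0.0659, all edgeR adjusted p). With only the libraries of low adrenal signal the adjusted p was 0.325.

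Hoxb3 (chr11:96323326-96347930), a hindbrain patterning gene, read 59.4, 66.3, 52.98 and 46.7 CPM in the controls against 77.05, 70.1, 73.6 and 74.3 CPM in the knockouts. The knockouts were tight, and all lay above control 2, the highest control. On the log2 scale the change was 0.39 (SE 0.10, edgeR adjusted p = 0.0381). Of its exon bases, 52.9% lie in exons of other genes, chiefly the opposite-strand Hoxb3os, so the counts may hold reads of both where strand was not used. Hoxb3os itself read 11.7, 9.86, 9.96 and 13.8 CPM in the controls against 12.9, 11.6, 12.6 and 14.5 CPM in the knockouts and was not called.

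Hoxb4 (chr11:96318267-96321638), known for expanding blood stem cells, had the largest fold change of its cluster. It read 49.8, 88.8, 48.9 and 52.1 CPM in the controls against 108, 94.5, 83.1 and 93.1 CPM in the knockouts. Control 2 stood apart from the other controls and above knockout 3, so the groups overlapped. The log2 fold change was 0.66 (SE 0.19, edgeR adjusted p = 0.0491), near the threshold, and scaling with DESeq2's size factors in the same fit moved the adjusted p to 0.0514. Leaving out any library except control 2 and knockout 3 ended the calls of Hoxb3 and Hoxb4. For Hoxb3 the adjusted p was then 0.0754 to 0.112. For Hoxb4 it was 0.103 to 0.133.

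Hoxb7, the ureteric bud gene, had no overlap but missed the threshold. It read 73.3, 84.03, 78.4 and 70.6 CPM in the controls against 87.1, 89.6, 91.1 and 89.5 CPM in the knockouts (log2 fold change 0.22, SE 0.066, edgeR adjusted p = 0.0527). Hoxb6, its neighbour, read 70.2, 70.2, 73.5 and 76.96 CPM against 87.4, 82.3, 80.6 and 79.2 CPM (log2 fold change 0.18, edgeR adjusted p = 0.072). Both separated the groups by small steps. Hoxb5 read 23.7 to 43.1 CPM in the controls against 42.0 to 44.0 CPM in the knockouts, where control 2 alone reached the knockout level. Hoxb2, a hindbrain gene at the anterior end, had the smallest fold change in HoxB, with 29.2 ± 3.38 CPM in the controls against 30.7 ± 2.02 CPM in the knockouts (SD over 4 libraries). Hoxb1, a rhombomere gene, was near the limit of counting at 0.182 to 0.926 CPM in the controls against 0.395 to 0.801 CPM in the knockouts. Summed ureteric tip markers read 558 to 975 CPM in the controls against 911 to 1212 CPM in the knockouts, and principal cell markers 504 to 1231 CPM and 279 to 1025 CPM. Of the tested genes of these lists, 1 of 6 and 2 of 8 were called higher, beside 6.61% of all tested genes. The log2 fold change was above 0 for 5 of the 6 ureteric tip genes, with a median of 0.47. For principal cells it was above 0 only for the 2 called genes, and the median was -0.52. The part of cell makeup in the HoxB levels was not tested.

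**Figure D3:**
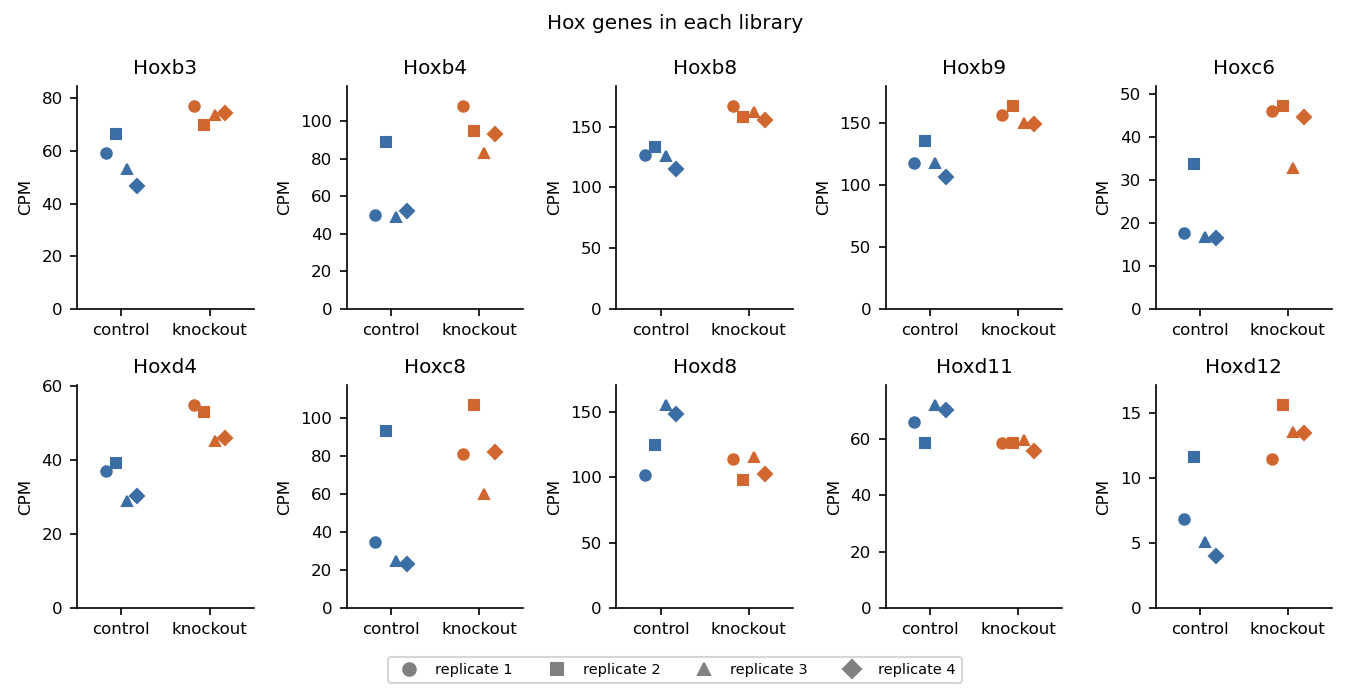
Level in CPM (vertical axis) of 10 Hox genes, controls and knockouts side by side (horizontal axis), with 1 point per library and the marker shape giving the replicate number. The groups do not overlap in Hoxb3, Hoxb8, Hoxb9 and Hoxd4, while control 2 reaches into the knockout range in Hoxb4, Hoxc6, Hoxc8, Hoxd11 and Hoxd12.

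HoxC had the highest median log2 fold change of the clusters, 0.91, and controls that spread widely. All 7 tested genes lay above 0, but only Hoxc6 was called and no gene separated the groups. The cluster (chr15:102921103-103036852) summed to 199, 337, 168 and 144 CPM in controls 1 to 4 and 318, 397, 273 and 346 CPM in knockouts 1 to 4. Control 2 exceeded knockouts 1 and 3, and the other 3 controls lay below every knockout. The ratio of means was 1.57, and 1.96 without control 2.

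Hoxc6 (chr15:102998257-103011881), a thoracic patterning gene, read 17.6, 33.7, 16.8 and 16.5 CPM in the controls against 45.98, 47.2, 32.9 and 44.6 CPM in the knockouts. Control 2 lay just above knockout 3, and the other 3 controls were nearly equal and lower. Its log2 fold change was 1.01 (SE 0.24, edgeR adjusted p = 0.0286). The call was lost without any one library other than control 2 and knockout 3, with an adjusted p of 0.0747 to 0.0864. Hoxc4 (24.1, 45.6, 19.03 and 16.2 CPM against 45.5, 58.9, 38.9 and 53.4 CPM) and Hoxc5 (7.37, 16.9, 7.14 and 6.67 CPM against 15.8, 21.3, 15.6 and 20.8 CPM) had the same shape. Their log2 fold changes were 0.91 (SE 0.30, edgeR adjusted p = 0.0697) and 0.95 (SE 0.30, adjusted p = 0.0609).

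Hoxc8, which patterns the lower thoracic region, varied most among the controls. It read 34.5, 93.01, 24.5 and 22.9 CPM in the controls against 80.8, 106, 60.1 and 81.6 CPM in the knockouts. Control 2 exceeded 3 of the knockouts, while the other controls were below every knockout. The fitted log2 change was 0.91 (SE 0.43, edgeR adjusted p = 0.163). Without control 2 it was 1.59 (adjusted p = 0.00135).

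Towards the posterior end of HoxC the fold changes were smaller, and none was called. Hoxc9 read 40.8 ± 14.7 CPM in the controls against 50.5 ± 7.67 CPM in the knockouts (SD over 4 libraries; log2 fold change 0.31). Hoxc10, of the stromal group, read 57.3, 69.03, 50.3 and 45.4 CPM in the controls against 64.5, 81.7, 63.5 and 76.98 CPM in the knockouts, with control 2 among the knockouts (log2 fold change 0.37, SE 0.14, edgeR adjusted p = 0.0958). Hoxc11, of the group needed for the kidney, read 17.3, 18.3, 14.03 and 10.5 CPM and 18.2, 19.8, 17.3 and 20.3 CPM, again with control 2 among the knockouts (log2 fold change 0.33, SE 0.17, edgeR adjusted p = 0.188). The log2 ratio of Hoxc9 to Hoxc8 was 0.09 ± 0.50 in the controls and -0.69 ± 0.18 in the knockouts, with overlap between the groups. Stroma and fibroblast markers summed to 3417 to 4438 CPM in the controls, highest in control 2, and 3728 to 5968 CPM in the knockouts. Of these 12 markers 3 were called higher, beside 6.61% of all tested genes. The sum for neuron and glia markers was 42.996 to 89.4 CPM in the controls, again highest in control 2, and 79.3 to 258 CPM in the knockouts. Their part in the HoxC levels was not tested.

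HoxD was split. Of its 9 genes, 5 lay above 0 and 4 below, and only Hoxd4 was called. The summed level (chr2:74668310-74765142) was 419, 471, 493 and 472 CPM in controls 1 to 4 and 443, 437, 477 and 448 CPM in knockouts 1 to 4. These overlap, and the ratio of means was 0.974, or 1.02 when CPM were taken on raw totals, so no direction can be given for the cluster.

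Hoxd4 (chr2:74711929-74729160), a hindbrain and neck gene that responds to retinoic acid, read 37.2, 39.2, 28.8 and 30.2 CPM in the controls against 54.7, 53.04, 45.1 and 46.01 CPM in the knockouts. The lowest knockout lay above the highest control. On the log2 scale the change was 0.56 (SE 0.12, edgeR adjusted p = 0.022). The call was lost without any one library other than control 2 and knockout 3, with an adjusted p of 0.0515 to 0.0665. Of its exon bases, 52.3% are shared with other genes, among them Hoxd3 on the same strand. Hoxd3, with 62.8% of its exon bases shared, read 13.8, 13.98, 13.9 and 11.2 CPM in the controls against 18.8, 15.04, 20.1 and 14.7 CPM in the knockouts. Its groups did not overlap either, though it was not called (log2 fold change 0.38, SE 0.14, edgeR adjusted p = 0.089). Reads of these genes could have been split between them, so their separate values are uncertain.

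Hoxd8, the next gene towards the posterior end, had a lower mean in the knockouts but was not called. It read 102, 125, 155 and 148 CPM in the controls against 114, 97.9, 115 and 103 CPM in the knockouts. Controls 2, 3 and 4 were above every knockout and control 1 was among them (log2 fold change -0.30, SE 0.13, edgeR adjusted p = 0.131). The log2 ratio of Hoxd8 to Hoxd4 was 1.96 ± 0.47 in the controls and 1.11 ± 0.20 in the knockouts (mean ± SD, n = 4 each), with no overlap. It was 1 of 2 such pairs among 30 neighbouring pairs, the other being Hoxb8 to Hoxb7, at 0.71 ± 0.055 and 0.85 ± 0.063. Among all tested genes taken singly, 18.9% had groups that did not overlap in either direction. No such share was taken for ratios of other gene pairs, so these 2 pairs are not shown to be unusual.

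Hoxd11, of the group needed for kidney formation, read 66.01, 58.7, 71.8 and 70.2 CPM in the controls against 58.3, 58.4, 59.5 and 55.8 CPM in the knockouts. The knockouts sat near the lowest control, control 2 (log2 fold change -0.20, SE 0.073, edgeR adjusted p = 0.0906). Without control 2 it was called lower, at -0.26 (adjusted p = 0.00876). Hoxd12, a limb and urogenital gene, was lower in level and read 6.79, 11.6, 5.08 and 3.95 CPM against 11.4, 15.5, 13.5 and 13.4 CPM (log2 fold change 0.97, SE 0.30, edgeR adjusted p = 0.0571). Control 2 overlapped the lowest knockout.

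Hoxd9, the gene with the highest level, read 132, 145, 153 and 142 CPM in the controls against 119.9, 126, 152 and 138 CPM in the knockouts (log2 fold change -0.09, SE 0.083, edgeR adjusted p = 0.445). Its groups overlapped broadly. Hoxd10, of the stromal group, read 58.5, 74.4, 63.9 and 64.5 CPM and 63.6, 68.6, 69.98 and 75.6 CPM (log2 fold change 0.09, SE 0.087, adjusted p = 0.485). At the ends of the cluster, Hoxd1 read 1.09 to 2.4999 CPM in the controls against 1.40 to 2.11 CPM in the knockouts. Hoxd13, a digit patterning gene with the largest fold change of all, read only 0.246, 0.278, 0.0403 and 0.499 CPM in the controls against 0.421, 0.602, 0.518 and 0.754 CPM in the knockouts (log2 fold change 1.12, SE 0.52, edgeR adjusted p = 0.159). At that depth 1 library is a matter of a few counts, and neither gene was called.

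In HoxA 0 of 9 tested genes were called by edgeR, and the median log2 fold change was 0.13. In DESeq2 1 of them, Hoxa9, was called, and 1 had an unadjusted p under 0.05 in edgeR. The cluster (chr6:52162417-52260880) summed to 474, 514, 457 and 444 CPM in controls 1 to 4 and 542, 563, 496 and 602 CPM in knockouts 1 to 4, where knockout 3 lay below control 2. The ratio of means was 1.17. Hoxa9, a gene best known in blood progenitors, read 146, 161, 131 and 118 CPM in the controls against 182, 179, 156 and 205 CPM in the knockouts. Control 2 was above knockout 3 (log2 fold change 0.38, SE 0.11, edgeR adjusted p = 0.0516). Hoxa5, a lung and rib patterning gene, spread widely among the controls, at 41.9, 76.8, 35.8 and 33.6 CPM, with control 2 the second highest of all 8 libraries. Its knockouts read 66.002, 78.4, 53.98 and 73.7 CPM. The log2 fold change of Hoxa5, the largest in HoxA, was 0.53 (SE 0.25, edgeR adjusted p = 0.168). Without control 2 it was 0.87 (edgeR adjusted p = 0.00226), and Hoxa5 was called under 4 of the 18 alternatives.

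The HoxA genes with known renal roles were not called. Hoxa10 read 157, 137, 159.9 and 171 CPM in the controls against 156, 159, 151 and 172 CPM in the knockouts (log2 fold change 0.03, SE 0.078, edgeR adjusted p = 0.801), and the sign turned negative under 4 of the alternatives. Hoxa11, the partner of Hoxd11 in kidney formation, read 56.2, 57.4, 61.3 and 54.4 CPM and 59.05, 63.2, 61.2 and 63.7 CPM (log2 fold change 0.11, SE 0.060, edgeR adjusted p = 0.225). Both pairs of groups overlapped. The antisense transcript Hoxa11os, which shares 35.0% of the exon bases of Hoxa11, read 52.2, 51.7, 48.7 and 43.6 CPM in the controls against 59.1, 68.3, 58.9 and 67.7 CPM in the knockouts and was called higher (log2 fold change 0.37, edgeR adjusted p = 0.0259). The strand setting of the counting is not given, so reads of the pair cannot be told apart. Hoxa7, a posterior trunk gene, read 33.4, 37.4, 35.5 and 36.7 CPM against 37.8, 37.5, 36.2 and 38.8 CPM. Hoxa2, Hoxa3, Hoxa4 and Hoxa6 had means of 4.36 to 15.5 CPM in either group and log2 fold changes of 0.08 to 0.34.

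The 4 genes left untested were all posterior: Hoxa13, Hoxb13, Hoxc12 and Hoxc13. Hoxa13, which patterns the distal limb and cloaca, had 33 counts in all controls together and 65 in all knockouts. Hoxb13 had 0 counts in the controls, which allows up to 0.0314 CPM at 3 counts of the total, and 1 over the knockouts. Hoxc12 had 0 and 4, and Hoxc13 had 3 and 4. Of the 65 counts of Hoxa13, 40 came from knockout 4.

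**Figure D4:**
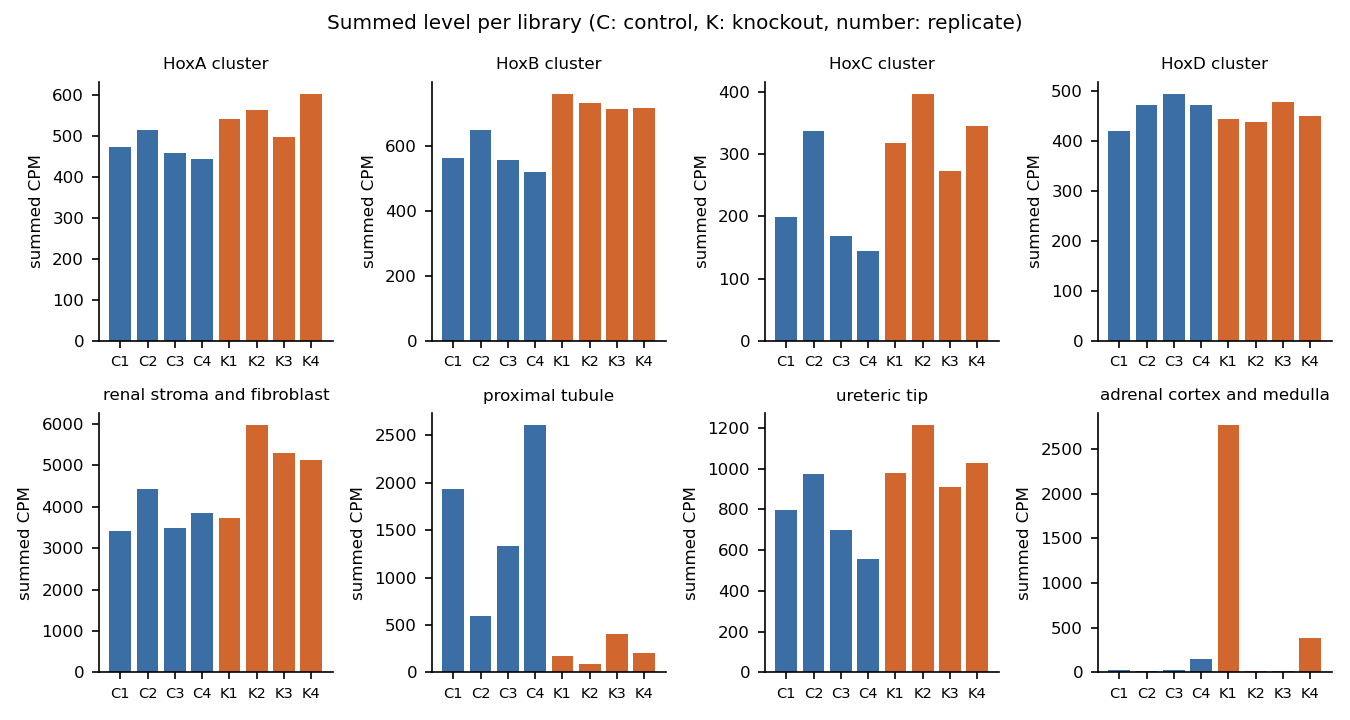
Summed level of each Hox cluster and of marker lists in CPM (vertical axes), for each library along the horizontal axis (C control, K knockout, with the replicate number). HoxB separates the genotypes, HoxC and HoxA overlap through control 2, and every proximal tubule sum is lower in the knockouts than in the controls.

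The 9 tested genes with a seed match, or with the full-length site of Hoxb8, had a median log2 fold change of 0.36 (0.07 to 0.91), with 1 called. The 25 without had a median of 0.34 (-0.30 to 1.12), with 5 called. Hoxb8, which holds no exact seed match, was added to the first set with its change known. It is the 1 called gene there and its value is the median of that set. None of the genes with a seed match was called, so the split is no test of the sites. Promoter windows from RefSeq, 250 bases before a start site, were found for 22 of the 38 genes, as 24 windows. On either strand, CCAAT was present in 58.3% of them and in 33.8% of all 32851 windows, TATAAA in 16.7% and 12.4%, CACGTG in 16.7% and 6.02%, and the Pbx-Hox motif TGATTNAT in 8.33% and 2.82%. None of these motifs contains another. Their median GC content was 58.6%, beside 52.4%. The windows of 3 genes called higher are shown, since they differ in composition while the genes moved together; capitals mark CCAAT and TATAAA matches on either strand.
Hoxb8 promoter: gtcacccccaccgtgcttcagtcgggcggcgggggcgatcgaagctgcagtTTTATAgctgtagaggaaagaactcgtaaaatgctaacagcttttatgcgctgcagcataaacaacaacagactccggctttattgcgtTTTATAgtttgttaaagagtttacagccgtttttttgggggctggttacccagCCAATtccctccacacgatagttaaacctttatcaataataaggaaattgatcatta
Hoxb4 promoter: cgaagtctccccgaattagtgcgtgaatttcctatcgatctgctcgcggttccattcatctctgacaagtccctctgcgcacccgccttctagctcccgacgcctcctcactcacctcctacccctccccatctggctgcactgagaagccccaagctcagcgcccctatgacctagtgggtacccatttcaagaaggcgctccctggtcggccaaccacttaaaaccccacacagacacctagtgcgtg
Hoxd4 promoter: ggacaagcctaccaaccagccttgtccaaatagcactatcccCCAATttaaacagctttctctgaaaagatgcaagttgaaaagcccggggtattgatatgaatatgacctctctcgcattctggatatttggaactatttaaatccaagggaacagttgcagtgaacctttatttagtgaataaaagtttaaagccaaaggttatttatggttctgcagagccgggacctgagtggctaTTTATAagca
These lie at chr11:96281655-96281904, chr11:96318017-96318266 and chr2:74721728-74721977 on the plus strand of GRCm38.p6. The Hoxb8 window holds 1 CCAAT and 2 TATAAA matches and the Hoxd4 window 1 of each. No match was found in the Hoxb4 window, which has a GC content of 58%, beside 44.4% and 40.4% for the other two.

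Among the cofactors that bind DNA with Hox proteins, 3 of 9 were called higher and none lower, with a median log2 of 0.41. The shares of all tested genes were 6.61% called higher and 8.27% called lower. Meis1 read 108, 144, 90.6 and 73.6 CPM in the controls against 169.8, 218, 157 and 197 CPM in the knockouts, without overlap (log2 fold change 0.83, SE 0.19, edgeR adjusted p = 0.0274). Pbx3 (0.58, adjusted p = 0.0211) and Pbx4 (0.60, 0.0405) were the others. Meis1 is also in the stroma marker list. The count was 5 without control 2, 3 without knockout 3 and 0 without any other single library.

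For regulators of Hox transcription, the counts stand beside 6.61% of all tested genes called higher and 8.27% called lower. Of 23 Polycomb genes, 2 were called, both higher: Cbx6 (log2 fold change 0.56, edgeR adjusted p = 0.0197) and Phc3 (0.35, 0.04996). Of 13 trithorax and H3K27 demethylase genes, Kmt2a was called higher (0.61, adjusted p = 0.0319) and Dpy30 lower (-0.24, 0.0319). Of 16 tested retinoic acid and Cdx genes, 5 were called higher and none lower, with a median log2 of 0.42. They were the retinoic acid synthesis enzymes Aldh1a1 (1.09, edgeR adjusted p = 0.0381), Aldh1a2 (0.78, 0.0267) and Aldh1a3 (0.93, 0.0132), the carrier Crabp2 (1.08, 0.0101) and the receptor Rarg (0.42, 0.0219). Aldh1a3 read 133, 160.1, 92.8 and 125 CPM in the controls against 216, 252, 276 and 229 CPM in the knockouts, without overlap. The Cdx genes, activators of posterior Hox genes in the embryo, were at or below 0.551 CPM. Without any one library other than control 2 and knockout 3, the Polycomb and trithorax counts were 0, and the retinoic acid count was 2 without control 1, control 3, knockout 1 or knockout 2, 3 without control 4 and 1 without knockout 4. Without control 2 the counts were 10, 8 and 7.

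Of 15 genes of the circuit in which Hox11 proteins act with Eya1 and Pax2 in nephron progenitors, 3 were called higher and 1 lower. Among all tested genes 6.61% were called higher and 8.27% lower. Ret, the receptor of the ureteric tip, read 98.2, 154, 86.1 and 65.1 CPM in the controls against 168, 208, 159 and 178 CPM in the knockouts (log2 fold change 0.82, edgeR adjusted p = 0.0437). Its ligand Gdnf (0.62, 0.039) and the stromal factor Foxd1 (0.64, 0.0477) were also higher. Cited1, a marker of uncommitted progenitors, was lower, at 109, 26.1, 81.8 and 69.9 CPM against 23.2, 24.9, 20.1 and 24.2 CPM (-1.64, 0.0225), and control 2 lay at the knockout level. Ret, Foxd1 and Cited1 also stand in the marker lists of ureteric tip, stroma and nephron progenitors, so those counts repeat their calls. Six2 (0.47, 0.127), Eya1 (0.19, 0.556) and Pax2 (0.11, 0.372) were not called. The count was 5 without control 2, 4 without knockout 3 and 0 without any other single library.

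Of 17 tested transcripts in or beside the clusters, 3 were called higher and 1 lower, beside 6.61% and 8.27% of all tested genes. Skap1, an adaptor of T cells 96.3 kb from HoxB, read 6.998, 7.08, 6.53 and 6.76 CPM in the controls against 13.8, 12.5, 12.1 and 14.2 CPM in the knockouts, without overlap (log2 fold change 0.94, SE 0.11, edgeR adjusted p = 0.00527). Smug1, a DNA glycosylase 116.5 kb from HoxC, read 25.9, 31.6, 26.04 and 25.5 CPM and 44.3, 56.6, 37.8 and 50.8 CPM, also without overlap (0.80, 0.013). Hoxa11os, described above, was the third, and Hibadh, 285.3 kb from HoxA, was lower (-0.40, 0.0346). Hotair, within HoxC, read 0.863 to 3.43 CPM in the controls against 2.49 to 3.21 CPM in the knockouts and was not called. Hottip, beside Hoxa13, had no count in any control. The count of 4 was 9 without control 2, 3 without knockout 3, 1 without knockout 4 and 2 without any other single library.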

How the data were processed

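RNA was taken from frozen kidney, selected with oligo-dT and made into libraries with the NEBNext Ultra kit, per the labels' protocols. The submitters' processing notes list Trimmomatic 0.36, STAR 2.5.2b, featureCounts of Subread 1.5.2, DESeq2 and build GRCm38. The strand setting and the handling of reads that overlap several genes or map to several places are not given in the sources used here. The deposited values are whole counts per gene, not normalized, for 49315 gene identifiers, and 0 values differed between the series table and the library files. No row named no gene. GENCODE M21 holds 49056 of the identifiers; 48970 were given a symbol and 345 had none. Groups came from the genotype labels, with 4 libraries each.

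Counts were fitted with edgeR 4.0.16 (quasi-likelihood, TMM scaling, filterByExpr) in R 4.3.3, and p-values were adjusted by Benjamini-Hochberg over all 18485 genes tested. A call means an adjusted p under 0.05. CPM use TMM library sizes, and RPKM divide these by the exon length in kilobases. Library totals set the precision: a count of 0 allows up to 3 counts, and such limits cover counting error only. The fit was tested on simulated counts for 18196 genes, where 61% of 2-fold and 91.7% of 4-fold changes were recovered with 6 false calls. Counts there were drawn independently for each gene. The simulation therefore does not cover smaller changes or differences that libraries share across genes. DESeq2 1.42.0, other scaling and filters, a replicate block, covariates and omitted libraries were the alternatives. The members and gene lists were chosen with earlier results of these data known, so no set test is given. Library values were given for called Hox genes, groups 10 and 11, Hoxb7, the highest gene of each cluster and the 3 largest uncalled changes, and from each other list at most 4 called genes. Any gene named beyond that rule (such as Hoxc8, Hoxd8, Hoxa9, Hoxd3, Aldh1a1 and Six2) was chosen after its values were seen, as were the 2 alternatives that kept only libraries with Y-linked transcripts or with low adrenal signal. Sites were searched in GENCODE M21 transcripts, and promoters and microRNAs are RefSeq's on GRCm38.p6.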

Additional observations from a re-analysis of the deposited data

Results flagged for a closer look

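In 7 of 68 gene and group sets of 4 libraries checked with Dixon's test, the highest or lowest library lay far from the rest; chance flags about 1 in 20. Control 2 was the high library in 5 of them: Hoxb1 at 0.926 CPM, Hoxb4 at 88.8 CPM, Hoxc5 at 16.9 CPM, Hoxc6 at 33.7 CPM and Hoxc8 at 93.0 CPM. Control 4 was the low library for Hoxd1 at 1.09 CPM and for Hoxd3 at 11.2 CPM. No knockout library stood apart in this way for a tested Hox gene.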

How the results depend on the processing

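The 34 tested Hox genes gave 609 fold changes under 18 alternatives: 508 kept their direction and side of the threshold, 43 lost a call, 48 gained one and 10 changed sign. The number of Hox genes called was 6, and 14 with DESeq2, 2 with the adrenal covariate, 13 in the libraries with Y-linked transcripts, 0 in those with low adrenal signal, and 18 without control 2 and knockout 3. Without 1 library it ran from 0 to 19. Over all genes the 2751 calls became 4506 with DESeq2, 1195 with the adrenal covariate, 3163 with Y-linked transcripts, 1 with low adrenal signal and 7903 without control 2 and knockout 3, and ran from 153 to 7084 without 1 library. The fit to the libraries with low adrenal signal has 5 libraries, and those with Y-linked transcripts number 5. Control 2 is kept in the first and left out of the second. The cause of these shifts was not tested.

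Changes of sign were Hoxa2, at -0.0043 with low adrenal signal and -0.0066 without knockout 4; Hoxa4, at -0.12 with low adrenal signal and -0.032 without control 4; Hoxb2, at -0.047 with Y-linked transcripts and -0.0069 with low adrenal signal. Hoxa10 changed sign with the adrenal covariate (-0.0047), in the libraries with Y-linked transcripts (-0.065), without control 2 (-0.029) and without control 2 and knockout 3 (-0.0070). None of these was called. Without 1 library these genes ranged up to 0.26 for Hoxa2, 0.22 for Hoxa4 and 0.076 for Hoxa10. The Kdm1a log2 fold change was -0.28 with Y-linked transcripts (edgeR adjusted p = 0.0562) and -0.29 with low adrenal signal (0.325), and -0.29 to -0.24 without 1 library. CPM on raw totals gave ratios of 1.34 for HoxB and 1.02 for HoxD; without 1 library the HoxB ratio was 1.24 to 1.34 and the HoxC ratio 1.42 to 1.96. Raw totals moved the median log2 fold change of all genes by 0.068.

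For Hox cofactors the 3 calls became 5 with DESeq2, 1 with the adrenal covariate, 0 with low adrenal signal, 5 without control 2 and knockout 3, and 0 to 5 without 1 library. For cluster neighbours 4 became 0 with low adrenal signal, 9 without control 2 and knockout 3, and 1 to 9 without 1 library. For Polycomb genes 2 became 1 with DESeq2 size factors, the Y-linked covariate, the adrenal covariate or no filter, 0 with low adrenal signal, 9 without control 2 and knockout 3, and 0 to 10 without 1 library. For trithorax genes 2 became 4 with DESeq2, 0 with the adrenal covariate, 1 with no filter, 4 with Y-linked transcripts, 0 with low adrenal signal, 9 without control 2 and knockout 3, and 0 to 8 without 1 library. For retinoic acid genes 5 became 2 with the adrenal covariate, 0 with low adrenal signal, and 1 to 7 without 1 library. For the Hox11 circuit 4 became 1 with the adrenal covariate, 0 with low adrenal signal, 7 without control 2 and knockout 3, and 0 to 5 without 1 library.

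The replicate block gave 11 Hox calls, where 3229 of 18485 genes in all were called. Same-numbered libraries correlated at -0.108, 0.329, 0.228 and -0.059 in their deviations from the group means. These mixed values cannot decide whether the numbers pair the libraries, and the labels do not say. Counts of a few reads limit Hoxb1, Hoxd13 and the 4 untested genes.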

Other observations

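The transcripts of Kdm1a's partners were not a part of the Hox comparison: of 10 tested genes of the Kdm1a and CoREST list, 1 was called higher (Rcor2) and 1 lower (Kdm1a itself). Summed markers of thick ascending limb were 236 to 1108 CPM in the controls and 17.7 to 319 CPM in the knockouts, with 5 of 6 called lower. Summed podocyte markers were 235 to 515 CPM and 93.9 to 219.5 CPM, with 3 of 7 called lower. Distal convoluted tubule markers had 3 of 5 tested called lower, while the other 2 had a log2 fold change above 0. Their sums overlapped, at 664 to 1022 CPM in the controls and 557 to 718 CPM in the knockouts. Summed nephron progenitor markers overlapped, at 430.5 to 649.9 CPM and 484 to 679 CPM, though 2 of 7 were called lower. Endothelial markers had 1 of 7 called lower. Leukocyte markers summed to 74.6 to 92.8 CPM and 90.5 to 113 CPM, with 2 of 6 called higher. Beside these marker counts, 6.61% of all tested genes were called higher and 8.27% lower. Sums for red blood cells were 371 to 765 CPM and 426 to 1306 CPM. Adipose sums were 199.6 to 276 CPM and 143 to 222 CPM, and muscle sums 40.5 to 80.5 CPM and 58.0 to 64.8 CPM. Testis, epididymis and ovary markers summed to 27.5 CPM in control 2 and at most 3.59 CPM elsewhere. The part of these differences in the Hox values was not tested.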
